A study of Homo sapiens with 22 samples.

Results

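VHL, PBRM1, BAP1, KDM5C, ARID1A, TSC1, TSC2 and NF2 are 8 tumour suppressor genes that are mutated in renal cell carcinoma, and their transcript levels were followed in renal epithelial cells in which SETD2, another of these genes, had been inactivated. The genes were chosen by name, and all 8 of the 8 were among the 36859 genes of the table and passed the filter on low values, as did 14585 genes in all. The 22 RNA-seq libraries came from RPTEC immortalized with hTERT, a human renal proximal tubule epithelial line, in 11 groups of 2. In medium with 2% serum these were untreated WT cells, WT cells kept for 72 h in TGF-β at 10 ng/mL, KO1 and KO2, which are clones without functional SETD2, and libraries labelled KO2 rescue. In medium with 10% serum these were the clones Rescue1 and Rescue2, in which a lentivirus put FLAG-tagged SETD2 back into KO cells, and WT populations that carried a vector for eGFP, SOX2, OCT2 or PRRX1. KO1, KO2, Rescue1 and Rescue2 were each grown from a single cell, so an effect of SETD2 and a property of the clone cannot be told apart, whereas the transduced WT cells were selected in bulk. The guide was aimed at SETD2, not at any of the 8 genes. Nothing in the labels says that the 2 libraries of a group came from separate cultures, so p-values measure the spread between these libraries, which may be technical.

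These genes act in a few connected processes. VHL is the substrate receptor of a ubiquitin ligase that marks the hypoxia-inducible factors for degradation, and its loss is the founding event of most clear cell renal carcinomas. PBRM1 and ARID1A are subunits of different SWI/SNF chromatin remodelling complexes, BAP1 removes ubiquitin from histone H2A, and KDM5C removes methyl groups from lysine 4 of histone H3. TSC1 and TSC2 form a complex that restrains mTORC1, the growth-controlling kinase complex, and NF2 encodes merlin, a membrane-linked protein that feeds into the Hippo pathway. SETD2, the enzyme that trimethylates lysine 36 of histone H3, lies on the short arm of chromosome 3 together with VHL, BAP1 and PBRM1, and the arm is commonly lost as a whole in clear cell tumours. In GENCODE 44 on GRCh38, VHL spans chr3:10141778-10153667, ARID1A chr1:26693236-26782104, TSC2 chr16:2047967-2089491 and NF2 chr22:29603556-29698598, all on the plus strand. PBRM1 spans chr3:52545352-52685917, BAP1 chr3:52401008-52410008, KDM5C chrX:53176283-53225422 and TSC1 chr9:132891348-132946874, all on the minus strand.

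The normalized counts added up to 11674491 to 16758645 per library, from about 7.6 M to 18.8 M reads. SETD2, the check of the labels, had 1852 and 2061 normalized counts in WT, 1046 and 1129.98 in KO1, 1049.8 and 1052 in KO2, and 9764 to 10445 in the 4 libraries of Rescue1 and Rescue2. The libraries labelled KO2 rescue had 834.5 and 819.6, less than KO2 (log2 change −0.35, SE 0.068, adjusted p = 0.00382), so SETD2 mRNA went against that label. Renal epithelial markers were present, with PAX8 at 1535 normalized counts or more in every library, but of 6 proximal tubule markers LRP2, the defining endocytic receptor, did not exceed 2.29 and the phosphate transporter SLC34A1 did not exceed 8.47, while GGT1 had a median of 794.3 over the libraries and CUBN, AQP1 and ANPEP reached 333.4 to 472.3 in the highest library. Of 3 leukocyte markers CD3E was at 0 in every library, PTPRC did not exceed 20.1 and CD68 ranged from 0 to 364.1, with CD68 lower in the rescue clones than in KO2 (log2 change −5.43, adjusted p = 0.000173). Of 3 endothelial markers PECAM1 and VWF did not exceed 26.3 and CDH5 did not exceed 83.8. The WT libraries differed in COL1A1, a TGF-β-induced collagen gene and 1 of 4 fibroblast markers. It had 11919 normalized counts in WT replicate 1 and 531.9 in WT replicate 2, against 46598 and 45007 with TGF-β. The other fibroblast markers COL1A2, PDGFRB and PDGFRA did not exceed 28.1, 63.5 and 231.1 in any library. Across genes, the typical (median) log2 gap within a group, sign ignored, was 0.159 in WT, the widest, and 0.147 in KO1. Calls of the 8 genes against WT are therefore given also without these libraries where that ends or moves them, and in bulk RNA fewer cells of a type and less RNA per cell cannot be told apart.

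Per kilobase of transcript, NF2 was the most abundant of the 8 and BAP1 the least. By the length of the canonical transcript, the median over the 11 group means was 691 normalized counts per kilobase for NF2, 374 for KDM5C, 319 for VHL, 234 for PBRM1, 176 for TSC2, 156 for ARID1A, 138 for TSC1 and 56.2 for BAP1. By the median length of the coding transcripts of a gene these levels were higher, with 1602 for NF2, 405.5 for PBRM1 above 387.2 for VHL, and 140.2 for BAP1 close to 142.9 for TSC1, so the order below NF2 depended on the length used. Among 13829 genes with a known length, NF2 stood at the 93.0 percentile of the mean level and BAP1 at the 50.9 percentile. The 8 genes also differed in how far their group means spread. From the lowest to the highest group the log2 range was 0.68 for TSC1 and 0.73 for VHL, and it was 1.41 for NF2 and 1.63 for BAP1, where the median over 8276 genes was 1.27. BAP1 was also the least precise of the 8, since its duplicates had a median coefficient of variation of 21.29% against 3.81% for NF2.

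**Figure D1:**
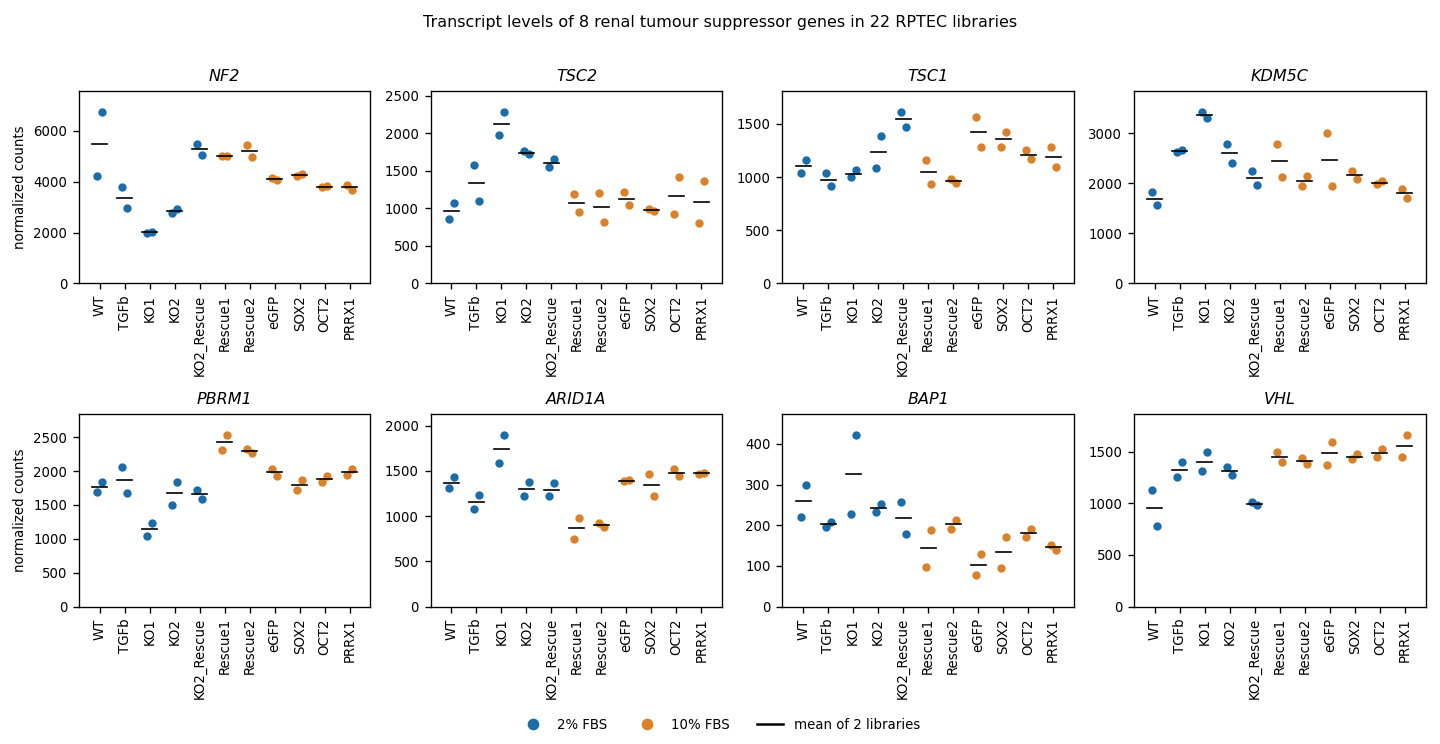
Normalized counts (vertical axes, starting at 0) of each of the 8 genes in the 22 libraries, by group. Points are single libraries, blue in 2% and orange in 10% fetal bovine serum (FBS), and black lines are means of 2 libraries. NF2 is lowest in KO1, at 1971 and 2041, and TSC2 and KDM5C are highest in the same clone.

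Of the 8 genes, 5 passed the test in KO1, 4 in KO2 and 3 with TGF-β. A gene passed where the adjusted p was under 0.05, and the fold threshold of the study was an absolute log2 change over 1. In KO1, TSC2, KDM5C and VHL rose (3 of 8, beside 19% of all tested genes) and PBRM1 and NF2 fell (2 of 8, beside 20.8%). These were 5 of 8 beside 39.8% in either direction, and TSC2 and NF2 were past the fold threshold, as were 25% of tested genes. In KO2, TSC2, KDM5C and VHL rose (beside 15.3%) and NF2 fell (beside 13.7%), 4 of 8 beside 28.9% in either direction. With TGF-β, KDM5C and VHL rose (beside 8.5%) and NF2 fell (beside 9.22%), 3 of 8 beside 17.7% in either direction. The median absolute log2 change of the 8 genes was 0.61 in KO1, 0.32 in KO2 and 0.40 with TGF-β, below the 0.76, 0.59 and 0.44 of all tested genes. These 3 comparisons share the WT libraries, and without WT replicate 2 the count with TGF-β was 0 and that in KO2 was 2. In fits of the compared libraries alone, the counts were 3 in KO1, 1 in KO2 and 0 with TGF-β.

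**Figure D2:**
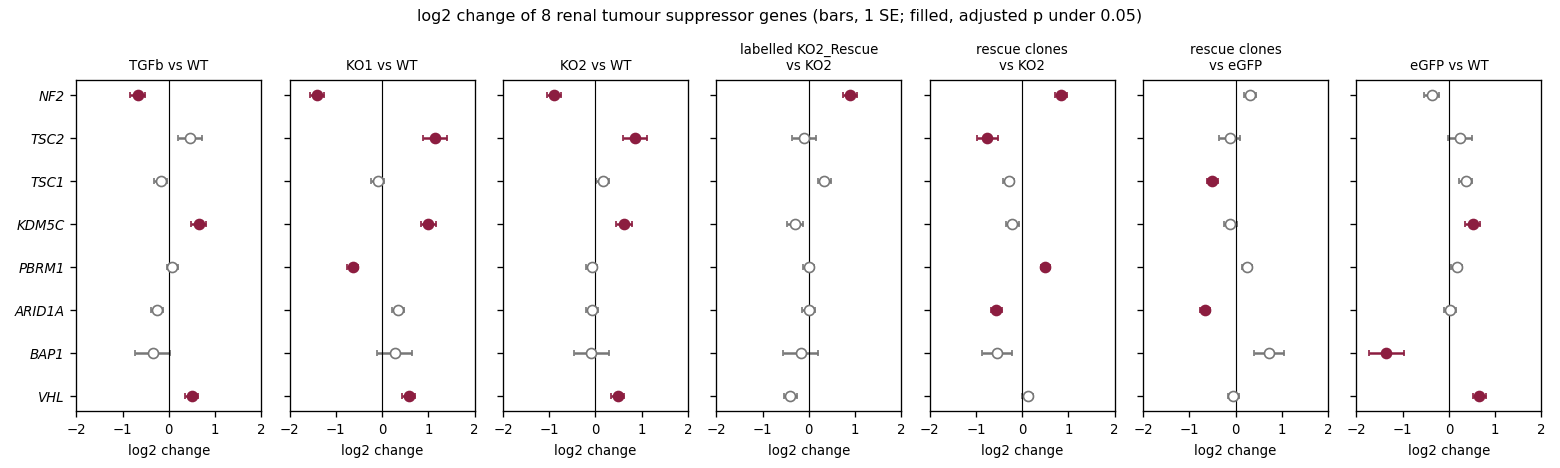
The log2 change (horizontal axes) of each of the 8 genes in 7 comparisons, with bars of 1 SE and filled points for an adjusted p under 0.05. NF2 is below 0 with TGF-β and in both KO clones and above 0 in the labelled KO2 rescue libraries and the rescue clones against KO2, and ARID1A lies below 0 in both comparisons of the rescue clones.

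NF2 (ENSG00000186575, chromosome 22) fell with TGF-β and in both KO clones, and it was higher in the rescue clones than in KO2. WT had 4214 and 6758 normalized counts, KO1 had 1971 and 2041, KO2 had 2770.5 and 2943, and TGF-β gave 3795 and 2949. Every KO library was therefore below every WT library, and KO1 was below KO2. NF2 had 5031 and 5012 in Rescue1, 5441 and 4981 in Rescue2, and 4151 and 4077 in WT cells with eGFP. Relative to WT, KO1 changed by −1.41 on the log2 scale (SE 0.16, adjusted p = 3.73e-06), KO2 by −0.90 (SE 0.16, adjusted p = 0.000404) and TGF-β by −0.67 (SE 0.16, adjusted p = 0.00712). Without WT replicate 2, KO2 changed by −0.56 (adjusted p = 0.00191) and TGF-β by −0.33 (adjusted p = 0.075). With TGF-β the change was −1.01 without WT replicate 1 and −0.49 (adjusted p = 0.0961) without TGF-β replicate 2.

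The clones differed in NF2, and NF2 was high both in the rescue clones and in the labelled KO2 rescue libraries, whose SETD2 mRNA was low. KO1 was below KO2 by a log2 difference of −0.51 (SE 0.16, adjusted p = 0.0381), a call that was lost without any 1 of the 4 libraries (adjusted p = 0.094 to 0.181) and on the deposited log2 values (−0.22, adjusted p = 0.0964). The mean of the KO clones was below TGF-β by −0.48 (adjusted p = 0.0111), which was −0.30 (adjusted p = 0.207) without TGF-β replicate 1 and −0.23 (adjusted p = 0.315) for KO2 alone. The rescue clones were above KO2 by 0.84 (SE 0.13, adjusted p = 0.000191), but serum differed between them. Against eGFP in the same serum the difference was 0.31 (adjusted p = 0.0972). The libraries labelled KO2 rescue, with SETD2 mRNA below KO2, held 5489 and 5072 counts of NF2, which put them above KO2 by 0.89 on the log2 scale (SE 0.16, adjusted p = 0.00156). Both lay above every KO and TGF-β library. The summed level of the 8 renal epithelial markers was also lower with TGF-β and in the KO clones than in WT, at 39864 and 43428 for WT, 31489 and 32525 for TGF-β, 19443 and 17908 for KO1, 27537 and 26564 for KO2, 44822 and 45299 in the libraries labelled KO2 rescue, 41532 to 45420.1 in the rescue clones, and 26274 and 27766 with eGFP. Most of this sum was KRT8 and KRT19, and its members went different ways, since PAX8 rose in both KO clones (log2 change 1.13 in KO1) and, in the rescue clones against KO2, 2 of the 8 markers rose and 2 fell. The part of these markers in the NF2 result was not tested.

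The other genes of the Hippo pathway and of merlin's relatives also fell more often than they rose in KO1. Of 22 tested genes, 10 fell and 3 rose in KO1, beside 20.8% and 19% of tested genes. The median log2 change was −0.79, against 0 for all tested genes. In KO2, 6 fell and 2 rose, beside 13.7% and 15.3%. In the rescue clones against KO2, where serum differed, 9 of 22 rose and none fell (limma, beside 34.5% of tested genes in either direction). Against eGFP in the same serum, 4 rose and 3 fell (beside 29.5%). In the libraries labelled KO2 rescue, 6 rose and none fell (beside 10.3%). The genes named by rule were WWC1 and WWC2, which encode KIBRA-type scaffolds that bind LATS kinases, and MSN. WWC1 fell from 6586 ± 957.4 (SD, n = 2) in WT to 1829.9 ± 188.8 in KO1 and 2361 ± 88.4 in KO2 (adjusted p = 5.13e-10 and 1.17e-08). WWC2 fell from 2908 ± 250.1 to 1176 ± 211.3 and 1391 ± 61.8 (adjusted p = 2.64e-07 and 4.28e-06). MSN, the gene of the ERM protein moesin, was listed at 0 in both WT libraries and at 3.92 to 15.3 in the KO libraries.

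The RefSeq promoter windows of NF2, TSC2, KDM5C and PBRM1 are shown because these genes moved in the KO clones. NF2 fell in both, PBRM1 fell in KO1, and TSC2 and KDM5C rose in both. VHL also rose in both, but no RefSeq window was available here for it. Each window is the 250 bases before an annotated start, on the strand of the gene in GRCh38.p14, with capitals marking GC boxes (GGGCGG or CCGCCC), which 42.6% of 35116 windows hold. They lie at chr22:29603306-29603555 for NF2, chr16:2047735-2047984 for TSC2, chrX:53225208-53225457 for KDM5C and chr3:52685914-52686163 for PBRM1, and where RefSeq has 2 windows the one nearest the GENCODE start is printed.
NF2: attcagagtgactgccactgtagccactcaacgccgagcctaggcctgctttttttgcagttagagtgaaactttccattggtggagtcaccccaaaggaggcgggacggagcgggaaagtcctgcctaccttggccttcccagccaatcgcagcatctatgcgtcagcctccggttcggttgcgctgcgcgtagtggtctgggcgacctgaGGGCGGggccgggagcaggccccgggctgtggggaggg
TSC2: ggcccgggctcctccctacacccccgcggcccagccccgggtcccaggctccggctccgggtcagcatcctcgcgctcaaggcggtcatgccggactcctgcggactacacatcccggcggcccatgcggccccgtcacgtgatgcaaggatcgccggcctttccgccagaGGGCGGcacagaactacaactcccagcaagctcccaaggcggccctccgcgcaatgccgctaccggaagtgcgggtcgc
KDM5C: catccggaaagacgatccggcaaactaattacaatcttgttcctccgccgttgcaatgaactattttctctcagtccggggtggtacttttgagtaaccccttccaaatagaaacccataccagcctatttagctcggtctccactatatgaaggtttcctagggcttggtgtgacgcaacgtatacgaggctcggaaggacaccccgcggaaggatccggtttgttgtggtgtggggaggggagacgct
PBRM1: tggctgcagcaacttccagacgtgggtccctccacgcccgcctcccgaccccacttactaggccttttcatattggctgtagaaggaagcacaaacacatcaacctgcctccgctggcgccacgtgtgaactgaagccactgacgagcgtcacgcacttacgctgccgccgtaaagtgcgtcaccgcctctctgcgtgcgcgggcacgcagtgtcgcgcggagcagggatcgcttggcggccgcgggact
The windows of NF2 and TSC2 held 1 GC box each with 16 and 27 CpG dinucleotides, and those of PBRM1 and KDM5C held no GC box with 26 and 15 CpG. The composition depended on the window, since the other RefSeq window of PBRM1, inside the gene, held 6 GC boxes and 40 CpG, and those of NF2 and TSC2 held 1 GC box each with 31 and 37 CpG. The printed NF2 window also held 2 CCAAT boxes (CCAAT or ATTGG, in 32.0% of windows) and that of PBRM1 held 1. The E-box CACCTG (or CAGGTG, in 17.5% of windows) was found in none of these 4 windows, which says only that these letters are not there.

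TSC2 (ENSG00000103197, chromosome 16), which encodes the GTPase-activating subunit of the complex, rose in both KO clones, while its partner TSC1 did not pass the test there. TSC2 had 852.2 and 1075 normalized counts in WT, 1970.3 and 2284 in KO1, and 1756 and 1719 in KO2, so the KO and WT libraries did not overlap. KO1 lay above WT by 1.15 on the log2 scale (SE 0.26, adjusted p = 0.00247), and KO2 lay above it by 0.86 (SE 0.26, adjusted p = 0.021). The KO2 call was lost without WT replicate 1 (0.69, adjusted p = 0.139), without either KO2 library (0.84 and 0.87, adjusted p = 0.0878 and 0.0758) and with the same total for every library (0.63, adjusted p = 0.0832). With TGF-β the libraries had 1574 and 1103, above both WT libraries, and the change of 0.46 did not pass (adjusted p = 0.28).

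TSC2 fell in the rescue clones relative to KO2, and in the libraries labelled KO2 rescue it did not pass the test. Rescue1 had 1189.5 and 952.5 and Rescue2 had 1201 and 822.8, which differed from KO2 by −0.76 on the log2 scale (SE 0.22, adjusted p = 0.017), with −0.13 (adjusted p = 0.74) against eGFP in the same serum. The change from KO2 missed the threshold without either KO2 library, without Rescue1 replicate 2 or without Rescue2 replicate 2 (−0.77 to −0.62, adjusted p = 0.051 to 0.0954), and it was −0.45 (adjusted p = 0.139) with the same total for every library. At 1554 and 1659, the labelled KO2 rescue libraries differed from KO2 by −0.11 (adjusted p = 0.88). TSC2 begins 101 bases from the start of NTHL1 on the other strand, a DNA repair gene none of whose changes passed the test.

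TSC1 (ENSG00000165699, chromosome 9), which encodes the stabilizing subunit hamartin, was the steadiest of the 8. It had 1038 and 1161 normalized counts in WT, 997.7 and 1064 in KO1, 1083 and 1384 in KO2, and 1038 and 911.3 with TGF-β, and these groups overlapped or nearly touched. KO1 differed from WT by −0.09 on the log2 scale (SE 0.14, adjusted p = 0.66), and KO2 by 0.16 (SE 0.14, adjusted p = 0.47). It was highest in the libraries labelled KO2 rescue, at 1614 and 1471, where the change from KO2 of 0.33 did not pass (adjusted p = 0.18). The 1 call for TSC1 was in the rescue clones, which had 1164, 934.0, 980.9 and 942.9 against 1563 and 1286 with eGFP (log2 change −0.50, SE 0.12, adjusted p = 0.00633), and it was lost without eGFP replicate 1 (−0.36, adjusted p = 0.131).

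Other genes of the TSC and mTORC1 pathway had medians near 0. Of 15 tested, 3 rose in KO1 (beside 19% of tested genes), and 4 rose (beside 15.3%) and 1 fell (beside 13.7%) in KO2, with medians of 0.06 and 0.15. With the same total for every library these were 2 up and 4 down in KO1 and 4 up and 3 down in KO2, with medians of −0.35 and −0.08, so the direction of the list depended on the scaling. The genes named by rule were DDIT4, FNIP1 and AKT1S1. DDIT4, a stress-induced activator of the TSC complex, had 8.17 ± 6.15 normalized counts (SD, n = 2) in WT, 153.4 ± 30.5 in KO1 and 43.1 ± 4.37 in KO2 (adjusted p = 0.000252 and 0.0189). In WT cells with eGFP, SOX2, OCT2 or PRRX1, where serum differed, DDIT4 had 59.5 to 102.1. These libraries were above both KO2 libraries and below both KO1 libraries. AKT1S1, whose product PRAS40 inhibits mTORC1, rose from 922.8 ± 31.4 to 1983 ± 65.6 and 1491 ± 30.5 (adjusted p = 3.02e-08 and 7.8e-06). FNIP1, the gene of a folliculin-binding protein, rose from 224.9 ± 4.35 to 351.6 ± 72.8 and 514.2 ± 102.6 (adjusted p = 0.0219 and 0.000368).

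**Figure D3:**
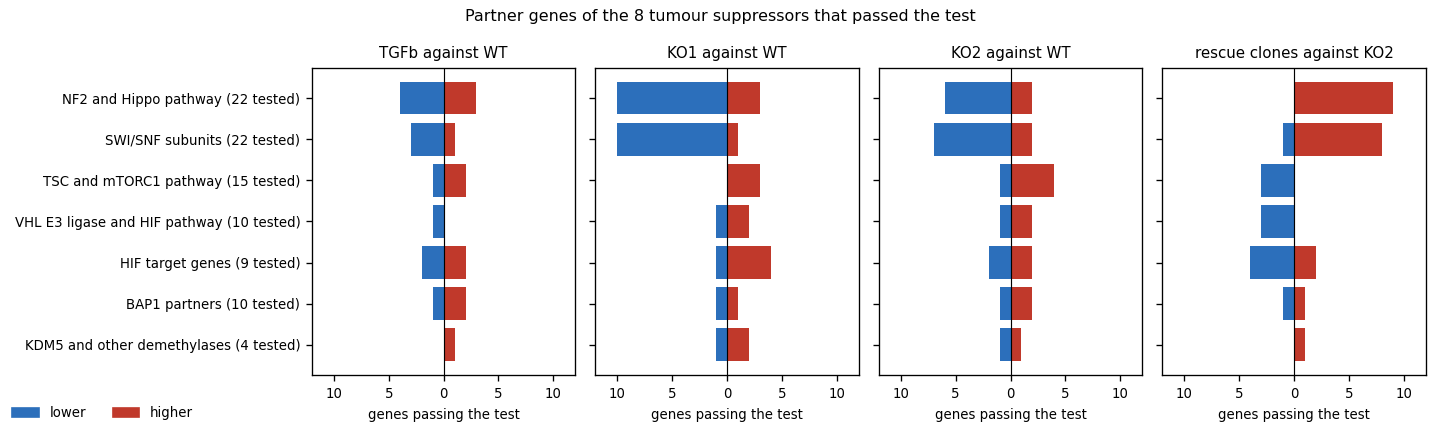
Number of partner genes that passed the test (horizontal axes, lower to the left in blue, higher to the right in red) for 7 lists in 4 comparisons. In KO1, 10 of 22 genes in each of the NF2 and SWI/SNF lists were lower. In the rescue clones against KO2, where serum differed, 9 and 8 of them were higher.

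KDM5C (ENSG00000126012, chromosome X) rose in both KO clones and with TGF-β. It had 1817 and 1564 normalized counts in WT, 3429 and 3309 in KO1, 2791 and 2406 in KO2, and 2633 and 2659 with TGF-β, so none of these groups overlapped with WT. On the log2 scale KO1 exceeded WT by 0.998 (SE 0.17, adjusted p = 0.000198), KO2 by 0.62 (SE 0.17, adjusted p = 0.0104) and TGF-β by 0.65 (SE 0.17, adjusted p = 0.0132), and the KO clones did not pass a test of their difference (0.38, adjusted p = 0.143). The KO2 call was lost without WT replicate 2 or KO2 replicate 1 (0.51 and 0.51, adjusted p = 0.0881 and 0.0952), and the TGF-β call without WT replicate 2 or either TGF-β library (0.54 to 0.66, adjusted p = 0.0645 to 0.114). In the rescue clones KDM5C had 2786, 2119, 1955 and 2144, and differed from KO2 by −0.22 (adjusted p = 0.28). Chromosome X genes as a whole had the highest median of any chromosome, 0.15 in KO1 and 0.21 in KO2 over 440 genes, and 0.00 with TGF-β; its part in the KDM5C result was not tested. KDM5C has a related gene on the Y chromosome, and whether reads were shared between them was not tested.

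KDM5C was also higher in WT cells with eGFP than in untreated WT cells, but the eGFP libraries disagreed. They had 2995 and 1945 normalized counts, and the log2 change of 0.52 (SE 0.17, adjusted p = 0.032; 3 of the 8 genes passed, beside 26.6% of tested genes) was 0.21 (adjusted p = 0.416) without eGFP replicate 1, 0.83 without eGFP replicate 2 and 0.41 (adjusted p = 0.188) without WT replicate 2. Among 4 other demethylases, 2 rose and 1 fell in KO1 (beside 39.8% of tested genes in either direction) and 1 rose and 1 fell in KO2 (beside 28.9%), where none rose without WT replicate 2 or with the same total for every library. KDM1A, which also acts on histone H3 lysine 4, fell from 3077 ± 197.2 normalized counts (SD, n = 2) in WT to 1764 ± 131.1 in KO1 and 2101 ± 9.14 in KO2 (adjusted p = 6.91e-08 and 6.93e-06). KDM5B, a close relative of KDM5C, rose from 2458 ± 493.2 to 4198 ± 621.8 and 3235 ± 22.5 (adjusted p = 4.73e-05 and 0.0111).

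PBRM1 (ENSG00000163939), the bromodomain subunit of the PBAF form of SWI/SNF, fell in KO1 and did not pass the test in KO2. It had 1696 and 1833 normalized counts in WT, 1046 and 1234 in KO1, 1499 and 1844 in KO2, and 2055 and 1680.3 with TGF-β, so KO1 lay below all 6 other libraries. KO1 differed from WT by −0.63 on the log2 scale (SE 0.11, adjusted p = 0.000426), KO2 by −0.09 (adjusted p = 0.65) and TGF-β by 0.08 (adjusted p = 0.76). The difference between the clones was −0.55 (SE 0.11, adjusted p = 0.00444; 3 of the 8 genes passed, beside 16% of tested genes), and it was −0.40 (adjusted p = 0.0745) without KO2 replicate 2. The mean of both clones was below TGF-β by −0.44 (adjusted p = 0.00299; 3 of 8, beside 36.3%), which was −0.29 (adjusted p = 0.0888) without TGF-β replicate 1 and −0.16 (adjusted p = 0.34) for KO2 alone.

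PBRM1 was highest in the rescue clones, at 2314 and 2534 in Rescue1 and 2322 and 2259.7 in Rescue2, above every other library. Their log2 change from KO2 was 0.50 (SE 0.10, adjusted p = 0.00113; 4 of 8, beside 34.5%). Against eGFP in the same serum, with 2032 and 1935, it was 0.25 (adjusted p = 0.0761). The labelled KO2 rescue libraries had 1727 and 1592, within the range of KO2, and 1 of the 8 genes passed there, NF2, beside 10.3% of tested genes.

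ARID1A (ENSG00000117713, chromosome 1), the largest subunit specific to the BAF form of SWI/SNF, moved in a different way from PBRM1. It had 1307 and 1431 normalized counts in WT, 1584 and 1897 in KO1, 1222 and 1373 in KO2, and 1074 and 1236 with TGF-β. The KO1 libraries lay above all of the others, with a log2 change from WT of 0.34 (SE 0.13, adjusted p = 0.0545) that turned to −0.067 with the same total for every library, and KO2 changed by −0.08 (adjusted p = 0.73). KO1 was above KO2 by 0.42 (adjusted p = 0.0451), a call lost without KO1 replicate 2 (0.29, adjusted p = 0.28), without either KO2 library (0.34 and 0.50, adjusted p = 0.234 and 0.0816) and under 5 other settings. The mean of both clones was above TGF-β by 0.38 (adjusted p = 0.0181), lost without TGF-β replicate 1 (0.28, adjusted p = 0.201), KO1 replicate 2 or KO2 replicate 2 (0.31 and 0.34, adjusted p = 0.0541 and 0.0547).

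The rescue clones had the lowest ARID1A of all groups. They had 749.1 and 983.2 normalized counts in Rescue1 and 928.4 and 874.9 in Rescue2, below all 18 other libraries. The log2 change was −0.66 from eGFP in the same serum, which had 1384 and 1401 (SE 0.12, adjusted p = 0.000491; 2 of 8, beside 29.5%), and −0.56 from KO2 (adjusted p = 0.00154). The change from eGFP passed without every single library, and that from KO2 did too but was −0.25 (adjusted p = 0.112) with the same total for every library. In WT cells with eGFP, SOX2, OCT2 or PRRX1 the gene had 1222 to 1516.

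Other SWI/SNF subunits fell more often than they rose in the KO clones. Of 22 tested, 10 fell and 1 rose in KO1 (beside 20.8% and 19% of tested genes) and 7 fell and 2 rose in KO2 (beside 13.7% and 15.3%), with medians of −0.72 and −0.28. Without WT replicate 2 these were 8 down and 4 up in KO1 and 5 down and 3 up in KO2. In the rescue clones against KO2, where serum differed, 8 rose and 1 fell (beside 34.5% in either direction). Against eGFP in the same serum, 2 rose and 3 fell (beside 29.5%). In the libraries labelled KO2 rescue, whose SETD2 mRNA was below KO2, 6 rose and 1 fell against KO2 in the same serum (beside 10.3%). With TGF-β, 3 fell and 1 rose (beside 9.22% and 8.5%). PHF10, a PBAF subunit, fell from 1367 ± 94.1 normalized counts (SD, n = 2) in WT to 737.9 ± 205.5 in KO1 and 574.8 ± 1.23 in KO2 (adjusted p = 0.00215 and 0.00024). BCL7A fell from 609.5 ± 139.6 to 231.3 ± 22.8 and 184.0 ± 34.6 (adjusted p = 8.06e-06 and 1.41e-06), and DPF3, a reader of modified histones, fell from 180.6 ± 66.5 to 40.6 ± 28.8 and 45.4 ± 17.8 (adjusted p = 0.00105 and 0.00421).

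BAP1 (ENSG00000163930) was the least abundant of the 8, and its changes in the KO clones were within its spread. It had 221.2 and 299.6 normalized counts in WT, 228.3 and 422.0 in KO1, 232.2 and 252.1 in KO2, and 196.8 and 208.2 with TGF-β. KO1 differed from WT by 0.27 on the log2 scale (SE 0.38, adjusted p = 0.62) and KO2 by −0.09 (adjusted p = 0.90), and the KO1 value turned to −0.17 without KO1 replicate 2. With an SE of 0.38, changes of the size seen for VHL were not detectable for BAP1. It was lower with eGFP than in untreated WT cells, at 76.7 and 130.0 normalized counts, which was −1.36 on the log2 scale (SE 0.38, adjusted p = 0.0147) and past the fold threshold, as were 12.7% of tested genes. That call was lost without WT replicate 2 (−1.14, adjusted p = 0.106) or eGFP replicate 1 (−0.98, adjusted p = 0.159), and serum and transduction differed together. The rescue clones had 96.4 to 214.0, which was 0.72 above eGFP (adjusted p = 0.114) and −0.55 from KO2 (adjusted p = 0.23).

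Of 10 tested genes of BAP1 partners, 1 rose and 1 fell in KO1 (beside 39.8% of tested genes in either direction) and 2 rose and 1 fell in KO2 (beside 28.9%, close to the share of the list). The KO1 counts were 1 down without WT replicate 1 and 2 up without WT replicate 2, and the KO2 counts were 1 up and 1 down and 3 up and 1 down. ASXL1 and ASXL2 encode alternative cofactors that activate BAP1, and they went opposite ways in the fit of all libraries. In KO1 the ASXL2 call was lost without WT replicate 1 and the ASXL1 call was lost without WT replicate 2. ASXL1 fell from 2766 ± 378.0 normalized counts (SD, n = 2) in WT to 1905 ± 216.4 in KO1 and 1686 ± 98.0 in KO2 (adjusted p = 0.0112 and 0.00233). ASXL2 rose from 1096 ± 186.3 to 1353 ± 46.6 and 1348 ± 44.8 (adjusted p = 0.0178 and 0.0253).

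VHL (ENSG00000134086) was lowest in untreated WT cells and in the libraries labelled KO2 rescue. It had 1129.6 and 778.9 normalized counts in WT and 1013 and 982.6 in the labelled KO2 rescue libraries, and all 18 other libraries had 1253 to 1664. Against WT, KO1 was higher by 0.58 on the log2 scale (SE 0.14, adjusted p = 0.00399), KO2 by 0.49 (SE 0.14, adjusted p = 0.0162), TGF-β by 0.50 (SE 0.14, adjusted p = 0.0226) and eGFP by 0.66 (SE 0.14, adjusted p = 0.00263). All 4 rest on the same WT libraries, of which replicate 2 was the lower. Without it the changes were 0.31 (adjusted p = 0.0638), 0.22 (adjusted p = 0.236), 0.23 (adjusted p = 0.292) and 0.39 (adjusted p = 0.0344), and without WT replicate 1 they were 0.75 in KO2 and 0.77 with TGF-β. The KO2 call was also lost without KO2 replicate 1 (0.44, adjusted p = 0.0976), and the TGF-β call without TGF-β replicate 2 (0.42, adjusted p = 0.155). With the same total for every library the change was 0.17 in KO1, 0.26 in KO2 and 0.26 with TGF-β, none of which passed. The libraries labelled KO2 rescue were below KO2 by −0.40 (adjusted p = 0.093), and the rescue clones differed from KO2 by 0.12 (adjusted p = 0.49). VHL has a close copy elsewhere in the genome, and reads could be split between them.

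In the list of VHL ligase and HIF pathway genes, 2 of 10 tested rose and 1 fell in each KO clone, beside 39.8% of tested genes in either direction in KO1 and 28.9% in KO2, so the count was not above the background in KO1 and near it in KO2. The 3 that passed in both clones were HIF1A, HIF1AN and RBX1. Without WT replicate 1, and likewise without WT replicate 2, none fell in KO1. HIF1A, the gene of the oxygen-regulated HIF-1 subunit, rose from 2550.1 ± 370.7 normalized counts (SD, n = 2) in WT to 7535 ± 471.8 in KO1 and 4970.3 ± 429.9 in KO2 (adjusted p = 8.94e-08 and 2.35e-05), with −0.06 on the log2 scale with TGF-β (adjusted p = 0.838). HIF1AN, which encodes the HIF asparaginyl hydroxylase, rose from 87.3 ± 4.35 to 159.7 ± 41.7 and 164.9 ± 2.87 (adjusted p = 0.00692 and 0.0055). RBX1, the RING subunit of the VHL ligase, fell from 1380.3 ± 21.1 to 1147 ± 25.9 and 860.0 ± 65.7 (adjusted p = 0.0409 and 7.14e-05).

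Target genes of HIF did not move together against WT. Of 9 tested, 4 rose and 1 fell in KO1 (beside 19% and 20.8% of tested genes), 2 rose and 2 fell in KO2 (beside 15.3% and 13.7%), and 2 rose and 2 fell with TGF-β (beside 8.5% and 9.22%). The median log2 change of the list was 0.80 in KO1, 0.33 in KO2 and 0.32 with TGF-β. Without WT replicate 1 it was 1.33, 0.36 and 0.27, and without WT replicate 2 it was 0.43, −0.14 and 0.09. With the same total for every library, 3 rose and 1 fell in KO1, 1 rose and 4 fell in KO2, and 1 rose and 3 fell with TGF-β. Between the clones, 6 of the 9 were higher in KO1 than in KO2 and 0 were lower, beside 16% of tested genes in either direction. These counts were the same with the same total for every library. In the rescue clones against eGFP, 2 rose and 5 fell (beside 29.5%). CA9, a gene switched on in cells without VHL, did not exceed 4.45 normalized counts in any library. ADM rose from 10.3 ± 1.25 normalized counts (SD, n = 2) in WT to 354.4 ± 116.0 in KO1 and 59.0 ± 20.1 in KO2 (adjusted p = 6.28e-06 and 0.00547), but it had 170.9 and 391.9 in WT cells with eGFP. NDRG1 rose from 2179.7 ± 351.9 to 6632 ± 703.8 and 3141 ± 650.6 (adjusted p = 2.22e-06 and 0.0305), and the glucose transporter gene SLC2A1 fell from 13682 ± 924.5 to 10912 ± 457.1 and 5588 ± 353.1 (adjusted p = 0.00476 and 1.38e-08).

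Because VHL, BAP1 and PBRM1 share the arm of chromosome 3 that was cut in the KO cells, their changes were set beside those of their neighbours. The guide, shown with its PAM in capitals because it fixes the cut, matched chr3:47122997-47123016 of GRCh38 on the plus strand.
guide: tagaatatgatgaccctcgtCGG
The cut falls between bases 47123013 and 47123014. The start of VHL lies 37.0 Mb towards the telomere, and those of BAP1 and PBRM1 lie 5.29 and 5.56 Mb towards the centromere, with 135 kb between these genes. Over 190 tested protein-coding genes on the telomeric side of the cut the median log2 change was −0.12 in KO1 and −0.04 in KO2. Over 175 genes between the cut and the centromere it was −0.04 and 0.04, and over 381 genes of the long arm it was 0.14 in both. The median over 12264 genes of other chromosomes was 0.00 in both. Copy number was not measured. BAP1 and PBRM1, close neighbours, went in opposite directions in KO1 by sign (0.27 and −0.63), of which the BAP1 value did not pass and turned to −0.14 with the same total for every library.

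**Figure D4:**
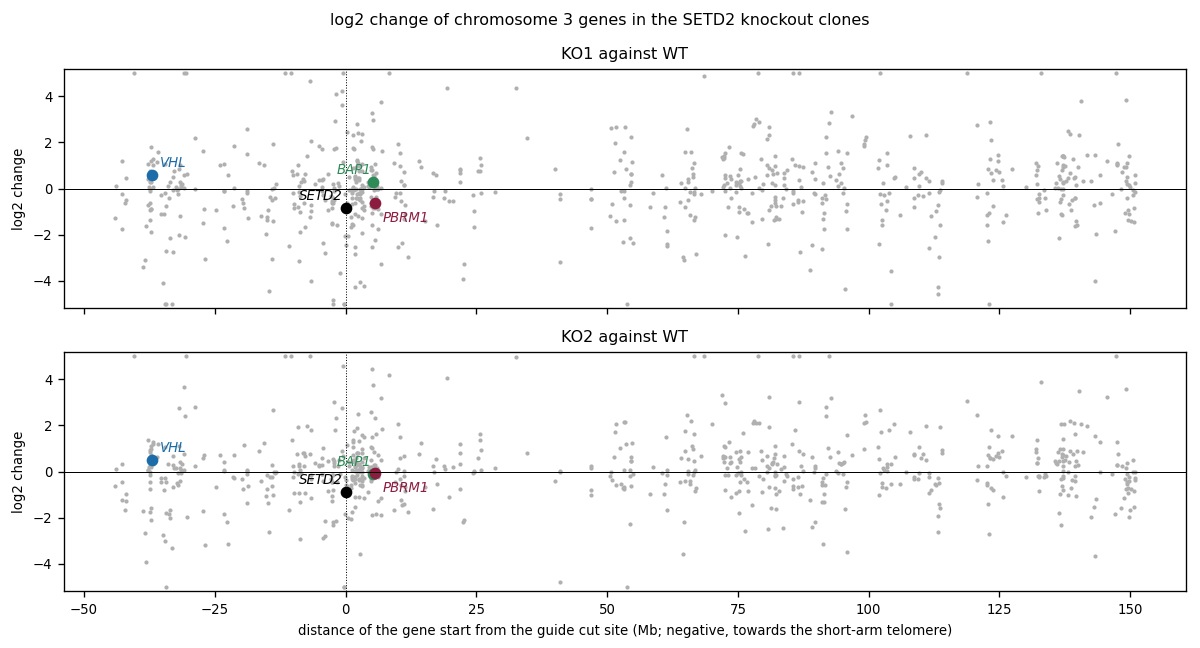
The log2 change (vertical axes) of 746 tested protein-coding genes of chromosome 3 in KO1 and KO2 against WT, by the distance of the gene start from the guide's cut (horizontal axis, Mb). Grey points are genes, of which 23 in KO1 and 16 in KO2 lie beyond 5 in absolute value and are drawn at the edge. The median is −0.12 in KO1 and −0.04 in KO2 on the telomeric side of the cut, and −0.04 and 0.04 between the cut and the centromere.

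None of the 8 genes passed the test in WT cells that carried SOX2, OCT2 or PRRX1. Against eGFP, 0 of 8 passed limma's test for each factor, beside 0.0206%, 0.0411% and 0.048% of tested genes, and at an unadjusted p under 0.05 the counts were 0, 1 and 1. The median absolute log2 change of the 8 genes was 0.11, 0.10 and 0.11, and 0.21 to 0.23 over all tested genes. The largest was that of BAP1, whose 171.7 and 189.6 normalized counts with OCT2, against 76.7 and 130.0 with eGFP, gave a log2 change of 0.85 (adjusted p = 0.68).

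Across the 11 group means, as a description without a test, NF2 and PBRM1 went together (Pearson r = 0.74), as did KDM5C and TSC2 (r = 0.75), and these pairs ran against each other, with r = −0.79 for PBRM1 and TSC2 and −0.76 for KDM5C and NF2. PBRM1 and ARID1A had r = −0.77, and TSC1 and TSC2, partners in 1 complex, had r = 0.06. The groups share a cell line and, in part, clones and serum, and 6 of the 8 genes have their lowest (NF2, PBRM1) or highest (TSC2, KDM5C, ARID1A, BAP1) mean in KO1. Group means much like those of NF2 were found for SHISA9 and JPT1 (r = 0.96 each), the genes most like TSC2 were LRP1, TRPT1 and EXOC7 (r = 0.97, 0.97 and 0.96), and those most like PBRM1 were XPO4, TBC1D4 and SMG1P5 (r = 0.98, 0.97 and 0.96). For VHL they were BRD2, CAMSAP2 and ASXL2 (r = 0.96, 0.94 and 0.93), and for ARID1A they were UXS1, MT-ATP6 and ZNF585A (r = 0.98, 0.96 and 0.95). For KDM5C they were ECE1, DEPP1 and CERS2 (r = 0.90, 0.89 and 0.89), for BAP1 MAEA, SDR39U1 and C2orf68 (r = 0.96, 0.94 and 0.94), and for TSC1 KCTD1, NFE2L2 and R3HDM2 (r = 0.85, 0.85 and 0.84).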

How the data were processed

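RNA-seq was analysed for 22 libraries of RPTEC, 11 groups of 2, grouped by their labels. Transcripts were quantified by the authors with Salmon (1.9.0 in the submitters' processing notes) against cDNA of GRCh38 from Ensembl, DESeq2 (1.26.0) was used, and the authors deposited log2 values for 36859 genes. How these were transformed is not given in the sources used here. All libraries share the lowest value, 11.32, and the values have the form of variance-stabilized normalized counts, so that transformation was inverted to recover normalized counts. Total normalized counts were 11674491 to 16758645, and approximate reads per library, read from the smallest step between values, were 7.6 M to 18.8 M, which limits the precision of genes with few counts. Symbols, positions and lengths were from GENCODE 44 on GRCh38, which held 33878 of the genes, and promoter windows from RefSeq on GRCh38.p14, for 6 of the 8 genes.

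limma 3.58.1 (R 4.3.3, variance trend) was applied to log2(normalized count + 1), with all 22 libraries and a mean per group in a single fit and no covariate. Tests covered the 14585 genes that reached 10 normalized counts in 2 or more libraries, with Benjamini-Hochberg adjustment over all of them in each of 12 comparisons. Standard errors, adjusted p-values and log2 changes come from this fit. Its recovery of known changes was checked on simulated data, with 200 of 14585 genes changed and none of these with few counts. Changes of 1 and 2 on the log2 scale were recovered in 85% and 100% of cases. Smaller changes, as most of those of the 8 genes were, were not simulated. The members and gene lists were chosen with earlier results of these data known. From each list the text names up to 3 genes that passed in both KO clones in the same direction, in order of the mean change, and for each of the 8 genes the 3 genes of highest correlation over group means among those with a mean of at least 100 normalized counts. Where a gene had 2 RefSeq windows, the one nearest its GENCODE start is printed, a choice made after the data were seen.

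The settings varied were the pseudocount (0.5 and 5), the filter (none, or a mean of 50 normalized counts), the scaling (quantile normalization, or totals made equal), use of the deposited log2 values, only the compared libraries, a replicate block, removal of a trend with length and GC content in 30 bins (13829 genes), single clones, and each library left out in turn. Counts of lists with the same total and without each WT library were added after the data were seen. Replicate numbers were not taken as pairs, since deviations of same-numbered libraries did not go together. No count model was used, since the table holds log2 values. EGLN1 and SESN2 were not analysed here, and 1 of the 3 genes most like NF2 is not reported here. Python 3.11.15 with pandas 2.3.3, numpy 2.4.6 and matplotlib 3.10.9, and the R package data.table (1.17.8), handled the data.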

Additional observations from a re-analysis of the deposited data

Results flagged for a closer look

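The KO clones differed from each other in 3 of the 8 genes by a test of the difference itself. PBRM1 was lower in KO1 than in KO2 by a log2 difference of −0.55 (SE 0.11, adjusted p = 0.00444) and NF2 by −0.51 (SE 0.16, adjusted p = 0.0381), while ARID1A was higher by 0.42 (SE 0.13, adjusted p = 0.0451). Each of these calls was lost without at least 1 of the 4 libraries, with KO2 replicate 2 among them for all 3.

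The mean of the KO clones and TGF-β also differed in the same 3 genes. PBRM1 was lower in the KO clones by −0.44 (SE 0.10, adjusted p = 0.00299), NF2 was lower by −0.48 (SE 0.13, adjusted p = 0.0111), and ARID1A was higher by 0.38 (SE 0.12, adjusted p = 0.0181). All 3 were lost without TGF-β replicate 1 (−0.29, −0.30 and 0.28) and for KO2 alone (−0.16, −0.23 and 0.17). Groups held 2 libraries each, too few to look for a library far from the others of its group.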

How the results depend on the processing

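Of 96 changes (8 genes in 12 comparisons), 28 passed, and 0 of these turned sign under any alternative run, but 11 of the 28 passed without every single library. Fitting only the compared libraries lost 17 of the 28 calls, and the number of genes passing became 0 for TGF-β against WT, 3 for KO1 against WT, 1 for KO2 against WT, 0 for KO1 against KO2, 1 for the KO mean against TGF-β and 0 for eGFP against WT. The same total for every library lost 10, with 1 for KO2 against WT and 4 for the rescue clones against eGFP, and it shifted the median of all genes by −0.39 in KO1, −0.21 in KO2, −0.20 with TGF-β, −0.18 for KO1 against KO2 and 0.29 for the rescue clones against KO2. No filter left 1 for KO1 against KO2, and KO2 alone left 0 against TGF-β. In these cases beyond the fewer libraries fitted the cause was not tested.

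Leaving out 1 library gave 0 to 3 genes for TGF-β against WT, 4 to 6 for KO1 against WT, 1 to 3 for KO2 against WT, 0 to 2 for KO1 against KO2, 0 to 3 for the KO mean against TGF-β, 1 to 3 for the rescue clones against eGFP, 3 to 5 for the rescue clones against KO2 and 1 to 4 for eGFP against WT.

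Among printed changes that did not pass, some turned sign. With the same total for every library, PBRM1 with TGF-β was −0.16, ARID1A in KO1 −0.067, BAP1 in KO1 −0.14, TSC1 in KO2 −0.069 and KDM5C in the rescue clones against KO2 0.088, and with the trend with length and GC content removed PBRM1 with TGF-β was −0.051. With 1 library left out the ranges were −0.070 to 0.22 for PBRM1 with TGF-β, −0.17 to 0.71 for BAP1 in KO1, −0.16 to 0.0061 for ARID1A in KO2, −0.31 to 0.13 for BAP1 in KO2, −0.23 to 0.064 for PBRM1 in KO2, −0.019 to 0.33 for TSC1 in KO2 and −0.26 to 0.010 for TSC2 in the rescue clones against eGFP.

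With the replicate number as a block, the count was 6 of 8 genes in KO1 against WT (5 without it, the added gene being ARID1A), and no other of the 12 counts changed. Same-numbered libraries did not deviate together, with correlations of −0.17 to 0.11 over 55 pairs of groups and 1 above 0.1, so the numbers were not treated as pairs. BAP1 had the fewest counts and the most variable duplicates, and the part of depth in this was not tested.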
